A study of Mus musculus with 4 samples.

Results

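Slit proteins are large secreted guidance cues, and Robo proteins are the receptors through which a growing axon or a migrating neuron reads them. In the developing cortex this pathway is known for steering callosal and corticofugal axons, for repelling migrating neurons and for acting on the division of progenitors. Binding of a Slit to a Robo recruits adaptors and the srGAP proteins, which bend membranes and switch off small GTPases such as Rac1 and Cdc42, and so changes the actin cytoskeleton. The genes described here are the 4 Robo receptors, the 3 Slit ligands and 3 srGAP genes, 10 genes chosen by symbol from the 32681 in the deposited table.

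The samples were primary neuron cultures from the neocortex of wild-type CD-1 mice, an outbred strain, at embryonic day 13. In 2 cultures a control short hairpin RNA (shRNA) had been transfected, and in the other 2 one against DcpS, a scavenger decapping enzyme that breaks down the cap remaining once an mRNA has been degraded from its 3′ end. The comparison asked which transcripts change when DcpS is depleted. The share of cells that took up a hairpin is not stated in the labels, and they do not say whether the cultures derive from different litters. The p-values therefore reflect the spread among these 4 samples, with each gene's spread moderated by that of other genes. Part or all of that spread may be technical.

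The libraries held 17754768 to 21793685 recovered reads. Values are normalised read counts, the authors' read counts divided by 1 size factor per library, and 3 reads, the most that a count of 0 allows, corresponded to 2.73 to 3.35 of them. Within each group the libraries differed beyond sampling noise (chi-square per degree of freedom 2.04 between controls and 3.73 between DcpS shRNA libraries). Dcps itself was 499.8 and 506.6 in the controls, against 114.5 and 119.6 with DcpS shRNA, or 23.3% ± 0.716 of the control mean (SD, n = 2). Of 10 neuron marker genes, led by Dcx and Map2, 1 was called lower and 1 higher, and 8 had a negative log2 fold change. The shares called lower and higher over all genes tested were 3.65% and 2.14%. The neuron sum was 105162 and 103361 in the controls, against 100107 and 98980 with DcpS shRNA, or 95.5% of the control mean. Markers of fibroblasts and matrix also moved with the groups, and 8 of 8 were called lower. Led by Col3a1 and Col1a2, their sum was 12254 and 13542 in the controls, against 7475 and 7131 with DcpS shRNA. Of 6 mural cell markers, led by Acta2 and Abcc9, 5 were tested, 1 was called lower and 1 had a positive log2 fold change (0.51). The mural sum was 185 and 166 in the controls, against 85.4 and 80.5 with DcpS shRNA. Of 10 markers of radial glia and astrocytes, led by Vim and Fabp7, 3 were called lower and 0 higher. Their log2 fold changes ran from −1.13 to 0.21, 5 negative and 5 positive, while their sum was 99.3% of the control mean. Of 8 markers of GABAergic interneurons, led by Gad1 and Dlx1, 0 were called. The GABAergic sum was 371 and 383 in the controls, against 331 and 330 with DcpS shRNA, or 87.7% of the control mean. In bulk samples such as these, fewer cells of a type and less RNA per cell cannot be told apart.

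The main Slit receptors, Robo1 and Robo2, were lower in cultures with DcpS shRNA, while the ligands and the srGAP genes did not pass the test. Robo2 fell to 78.4% ± 3.27 and Robo1 to 83.5% ± 4.16 of the control mean (SD, n = 2). Of the 10 genes, 8 had enough reads to be tested, and 2 of these were called lower and 0 higher (limma, Benjamini-Hochberg adjusted p under 0.05 over 18110 genes). Over all genes tested, 3.65% were called lower and 2.14% higher. The members were chosen with earlier results of these data known, so these counts are a description. All 8 tested members had a negative log2 fold change in the fit of all 4 libraries, with a median of −0.13, beside 0.00 over all genes tested, of which 49.8% were negative. These are the libraries in which the summed fibroblast, matrix, mural, endothelial, neuron and GABAergic interneuron markers were lower. The Cajal-Retzius cell sum was also lower (8230 and 8201 in the controls, against 8090 and 7311 with DcpS shRNA). So was the microglia sum (179 and 176 against 164 and 175), with 0 genes called in either list. Sums of oligodendrocyte lineage markers and of radial glia and astrocyte markers overlapped between the groups. The part of the lower sums in the values of Robo1, Robo2 and the other members was not tested. Both DcpS shRNA libraries lay below both controls for 6 of the 8, as they did for 24.0% of all genes tested, and above both controls for 0 of the 8, against 24.4% of all genes.

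Robo1 and Robo2 are the sequences of most interest here because they fell together. Both lie on chromosome 16 on opposite strands, with their 3′ ends facing each other across 845.743 kb. Their RefSeq promoter windows (250 bases before to 50 after an annotated start, GRCm38.p6) are printed 5′ to 3′ on the gene's own strand, with matches to 5 searched words in capitals. The Robo1 window is chr16:72662899-72663198 on the plus strand and starts inside the GENCODE gene, whose first annotated exon lies further upstream. RefSeq lists 3 windows for Robo2, and the one shown, chr16:74411776-74412075 on the minus strand, is at the GENCODE gene start.
Robo1: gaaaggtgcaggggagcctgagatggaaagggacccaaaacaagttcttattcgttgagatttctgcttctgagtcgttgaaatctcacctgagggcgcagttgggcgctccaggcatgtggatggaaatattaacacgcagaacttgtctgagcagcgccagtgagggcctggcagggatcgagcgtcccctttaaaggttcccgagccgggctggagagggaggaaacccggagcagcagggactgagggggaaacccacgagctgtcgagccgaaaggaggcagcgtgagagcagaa
Robo2: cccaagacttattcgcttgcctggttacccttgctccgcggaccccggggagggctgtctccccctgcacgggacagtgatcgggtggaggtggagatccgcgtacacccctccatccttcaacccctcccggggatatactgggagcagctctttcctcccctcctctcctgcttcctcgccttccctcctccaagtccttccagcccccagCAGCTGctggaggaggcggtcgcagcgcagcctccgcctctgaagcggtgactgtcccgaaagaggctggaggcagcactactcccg
The words, searched on both strands, were TAATTA (a core bound by LIM-homeodomain factors), the E-boxes CAGCTG and CAGATG, the GC box GGGCGG and the TATA box TATAAA. They occur in 5.29%, 16.3%, 17.1%, 35.7% and 13.6% of all 32851 promoter windows. The Robo2 window holds 1 CAGCTG and none of the other words, and the Robo1 window holds none. Their GC contents are 57.0% for Robo1 and 65.0% for Robo2, beside a median of 52.7% over all windows. A match is only a match of letters. Of the 10 genes, 9 had a RefSeq window and Slit1 did not.

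A second set of sequences links ligand and receptor genes. Slit2 and Slit3 each host, in an intron, a hairpin for the same microRNA, miR-218-5p, Mir218-1 at chr5:48223942-48224051 and Mir218-2 at chr11:35616816-35616925, both on the host's plus strand. MicroRNAs of this kind pair through bases 2 to 8, the seed, with messages in the cytoplasm, and Robo1 and Robo2 are known targets of miR-218. The mature sequence from RefSeq is shown with its seed in capitals, followed by the sites in the annotated 3′ UTRs of Robo1 and Robo2 (GENCODE M21, GRCm38) with the 7-base match to the seed in capitals.
miR-218-5p: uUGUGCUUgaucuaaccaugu
Robo1 site, chr16:73045335-73045355, plus strand: tttttggttttaaAAGCACAa
Robo2 site 1, chr16:73895358-73895378, minus strand: tttatttggtgatAAGCACAa
Robo2 site 2, chr16:73893032-73893052, minus strand: tcacggcagacccAAGCACAg
The match AAGCACA was also present once in the 3′ UTRs of Robo3, Srgap2 and Srgap3 and at 2 places in that of Slit2, and was absent from those of Robo4, Slit1, Slit3 and Srgap1. Among 13708 tested genes with an annotated 3′ UTR, 16.1% held it, and among the 646 of these that were called lower, 24.8% did. The median log2 fold change was −0.013 for genes with the match and 0.005 for genes without. The called lower genes also had longer 3′ UTRs, with a median of 1934 bases against 1228 over all genes scanned. Of the members with the match, Robo3 had a 3′ UTR of 343 bases and the others of 1733 to 4817. Those of the members without it ran from 365 to 4407 bases. The level of miR-218 was not analysed here.

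**Figure D1:**
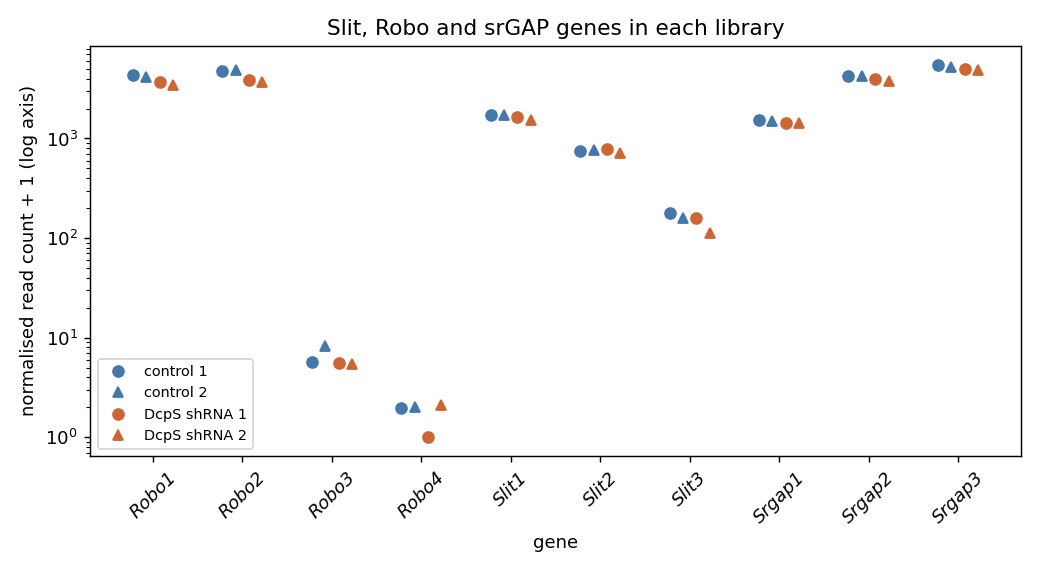
Normalised read count plus 1 (log axis) of the 10 genes in each of the 4 libraries; blue points are controls, orange points DcpS shRNA, and the symbol gives the replicate number. Robo1, Robo2, Srgap2 and Srgap3 lie between 3418 and 5524 in all 4 libraries, while Robo3 has 4 to 7 reads and Robo4 at most 1.

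Robo2 (ENSMUSG00000052516.19, chr16:73891839-74411825, minus strand, GRCm38), a transmembrane Slit receptor of the immunoglobulin superfamily, was 4800.2 and 4883 in controls 1 and 2. With DcpS shRNA it was 3906 and 3682. Both DcpS shRNA values lay below both controls, and the gap between the groups was wider than the spread within either. The mean went from 4841 ± 58.2 to 3794 ± 158 (SD, n = 2 per group). Its log2 fold change was −0.35 (SE 0.05, 95% interval −0.46 to −0.24, limma, Benjamini-Hochberg adjusted p 0.000573). This log2 fold change is that of log2(value + 1), which at these levels differs little from the ratio of the values.

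Robo1 (ENSMUSG00000022883.11, chr16:72308306-73046095, plus strand), the closest relative of Robo2 and coexpressed with it on many cortical axons, was 4292 and 4190.3 in the controls. With DcpS shRNA it was 3668 and 3418. The groups did not overlap. The mean went from 4241 ± 71.8 to 3543 ± 176 (SD, n = 2 per group), a log2 fold change of −0.26 (SE 0.05, 95% interval −0.37 to −0.15, limma, Benjamini-Hochberg adjusted p 0.00767). Without control 1 the adjusted p was 0.0968 and Robo1 was no longer called, with a log2 fold change of −0.24.

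The ratio of Robo2 to Robo1 was 1.12 and 1.17 in the controls, against 1.06 and 1.08 with DcpS shRNA. The ratio was therefore lower in both DcpS shRNA libraries, by 0.09 on the log2 scale, while each receptor remained abundant. Per kb of its longest coding transcript, Robo1 made up 50.3% and 49.3% of the Robo family in the controls, against 51.6% and 51.3% with DcpS shRNA, and Robo2 made up most of the rest. An exact permutation test (two-sided) of the log2 ratio gave a p of 0.333, the smallest that 2 libraries a group allow, so it could not pass the threshold, and the shares are given without a test.

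Robo3 and Robo4 were close to the limit of detection. Robo3 (ENSMUSG00000032128.15, chr9:37415669-37433246, minus strand), a divergent receptor that lets commissural axons cross the midline, had 5 and 7 reads in the controls, against 5 and 4 with DcpS shRNA. Summed over the group that is 12 reads (exact 95% Poisson interval 6.20 to 21.0) against 9 (4.12 to 17.1), and the intervals, which cover counting error only, overlap. Robo4 (ENSMUSG00000032125.20, chr9:37401897-37415115, plus strand), known as a receptor of endothelial cells, had 1 read in each control, 0 in DcpS shRNA 1 and 1 in DcpS shRNA 2. The 2 genes are 553 bases apart with their 3′ ends facing each other. Neither passed the filter on low counts, and no difference was detectable at this depth. Among 8 endothelial marker genes, led by Kdr and Esam, 4 passed the filter, and Tie1 and Cldn5 had at most 3 reads in every library. Of the 4, 1 was called lower and 1 had a positive log2 fold change (0.93). The summed level of that list was 124 and 156 in the controls, against 99.0 and 103 with DcpS shRNA.

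**Figure D2:**
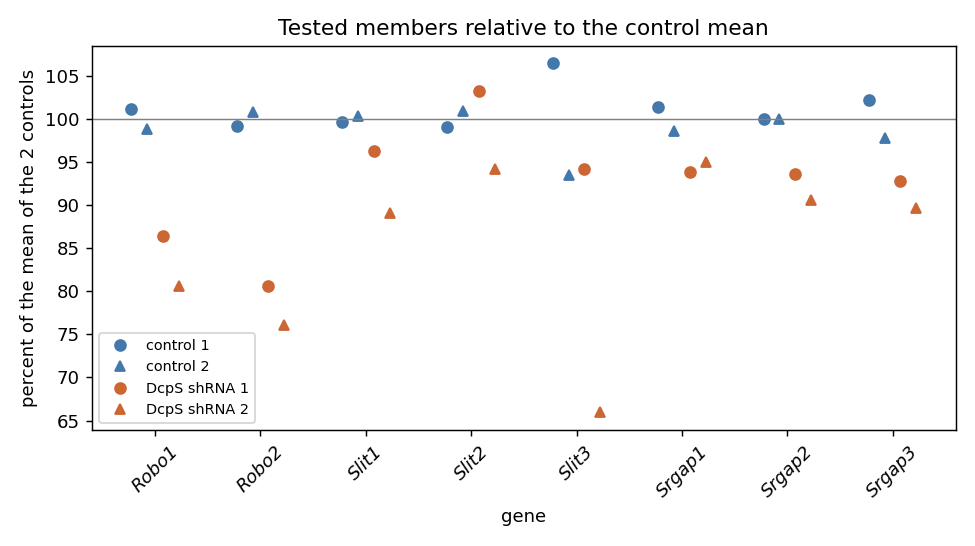
Each tested gene in each library as a percentage of the mean of the 2 controls (grey line at 100); the vertical axis does not start at 0. Robo1 and Robo2 with DcpS shRNA lie between 76.1% and 86.5%, the srGAP genes between 89.7% and 95.1%, and Slit3 spreads from 65.9% to 94.2%.

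None of the Slit ligand genes passed the test. Slit1 (ENSMUSG00000025020.11, chr19:41600257-41743665, minus strand), the Slit whose expression is largely neural, was 1715 and 1726 in the controls, against 1656 and 1532 with DcpS shRNA. Both DcpS shRNA values were below the controls, DcpS shRNA 1 only slightly. The log2 fold change was −0.11 (95% interval −0.23 to 0.01, limma, Benjamini-Hochberg adjusted p 0.327).

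Slit2 (ENSMUSG00000031558.15, chr5:47983138-48307733, plus strand), a repellent for callosal and corticofugal axons, was 755 and 770.2 in the controls, against 788 and 719 with DcpS shRNA. Here the groups overlapped, with DcpS shRNA 1 the highest and DcpS shRNA 2 the lowest of the 4 libraries. The log2 fold change was −0.02, and its 95% interval of −0.17 to 0.13 covers levels of 89.0% to 109% of control (limma, Benjamini-Hochberg adjusted p 0.925). Without DcpS shRNA 2 the log2 fold change was 0.046, of the opposite sign.

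Slit3 (ENSMUSG00000056427.10, chr11:35121224-35708507, plus strand), a Slit also made by many tissues outside the nervous system, was the lowest of the ligands. It was measured at 179 and 157 in the controls, against 158 and 111 with DcpS shRNA. DcpS shRNA 2 stood apart, while DcpS shRNA 1 lay between the controls. The log2 fold change was −0.34 (SE 0.16, 95% interval −0.68 to 0.00), close to that of Robo2 in size but with an interval that reaches 0 (limma, Benjamini-Hochberg adjusted p 0.272). Without DcpS shRNA 1 it was −0.59 and called (adjusted p 0.0228), and without DcpS shRNA 2 it was −0.08. The fibroblast and matrix markers were low in both DcpS shRNA libraries (58.0% and 55.3% of the control mean), and their part in the values of Slit3 was not tested.

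The srGAP genes encode GTPase-activating proteins that bind the cytoplasmic part of Robo1 through an SH3 domain and shape protrusions through an F-BAR domain. Srgap3 (ENSMUSG00000030257.16, chr6:112717971-112947266, minus strand) was 5524 and 5282 in the controls, against 5014 and 4849 with DcpS shRNA. Srgap2 (ENSMUSG00000026425.15, chr1:131285251-131527352, minus strand), known for its action on neuronal migration and spine maturation, was 4204 and 4204 in the controls, against 3936 and 3811 with DcpS shRNA. Srgap1 (ENSMUSG00000020121.15, chr10:121780991-122047315, minus strand), the family member first described as a Robo effector acting on Cdc42, was 1535 and 1491 in the controls, against 1419 and 1438 with DcpS shRNA. In all 3 genes both DcpS shRNA libraries lay below both controls, by small margins.

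The log2 fold changes were −0.13 for Srgap3 (95% interval −0.24 to −0.02), −0.12 for Srgap2 (−0.23 to −0.01) and −0.08 for Srgap1 (−0.20 to 0.04). None passed after adjustment (limma, Benjamini-Hochberg adjusted p 0.171, 0.217 and 0.478), and the unadjusted p-values were 0.0211, 0.0331 and 0.162. Without DcpS shRNA 1, Srgap3 was called (log2 fold change −0.16, adjusted p 0.0413). Some exon bases of Srgap1 are shared with Gm48804 on the same strand, and some of Srgap3 with Gm44081 on the other. How reads there were counted is not stated in the sources used here.

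**Figure D3:**
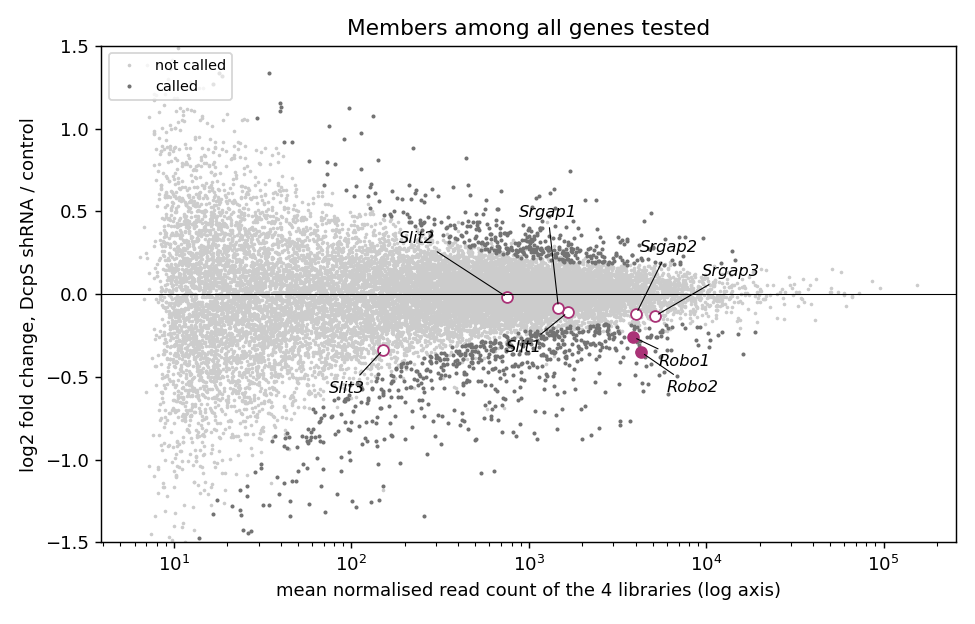
Log2 fold change of each tested gene (DcpS shRNA over control, on the log2(value + 1) scale) against its mean normalised read count (log axis), with called genes in dark grey and the 8 tested members as circles, filled where called; 24 genes beyond 1.5 on either side are not drawn. Robo1 and Robo2 lie among the called lower genes at their level, and the srGAP genes and Slit1 among genes not called.

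Among genes with a mean of at least 1000 in each group, which takes in Robo1, Robo2, Slit1 and the srGAP genes, 4.68% of 4895 were called lower and 3.29% higher. Over all genes tested, 8.69% had a lower log2 fold change than Robo2 and 12.7% a lower one than Robo1. These shares take in genes with few reads, whose fold changes vary more, and were not computed within the abundant set. For Srgap3, Srgap2 and Srgap1 the shares were 23.9%, 25.8% and 31.4%.

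Levels can be compared between genes only per length, here normalised read count per kb of the longest coding transcript. In the controls Srgap3 had the highest level (622 and 594 per kb), followed by Robo2 (559 and 568), Robo1 (567 and 554) and Srgap2 (524 and 524). Robo1 and Robo2 did not differ beyond the spread of the controls. Slit1 followed at 302 and 304, Srgap1 at 197 and 191, Slit2 at 75.8 and 77.3 and Slit3 at 34.2 and 30.0 per kb. Robo3 (control mean 1.24 per kb) and Robo4 (0.199 per kb) were far below. With DcpS shRNA both receptors stood below Srgap2 in both libraries. The order of the first 5 depends on the length used: with the merged exons of all annotated transcripts, Srgap2 and Slit1 come before Robo2 and Robo1.

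Summed by role per kb, the receptors were 1127 and 1124 in the controls, against 941 and 882 with DcpS shRNA. The ligands were 412 and 412 against 401 and 363, and the srGAP genes 1343 and 1310 against 1237 and 1205. The ratio of receptors to ligands was therefore 2.73 in each control and 2.34 and 2.43 with DcpS shRNA. The ratio of receptors to srGAP genes was 0.840 and 0.858 in the controls, against 0.760 and 0.732 with DcpS shRNA. With the merged exons of all annotated transcripts as length, the receptors stood at 1.56 times the ligands in each control, against 1.34 and 1.39 with DcpS shRNA. On that length their ratio to the srGAP genes was 0.511 and 0.525 in the controls, against 0.463 and 0.446. The size of these ratios thus depends on the length used, while both were lower with DcpS shRNA on either length, by 0.19 to 0.20 on the log2 scale. The exact permutation test (two-sided) gave a p of 0.333, the smallest possible, for each of the 6 ratios computed. Within the ligands, per kb of the longest coding transcript, Slit1 was 72.8% to 74.3% of the Slit sum in the 4 libraries, and the groups overlapped. Slit2 was 18.4% and 18.8% in the controls, against 19.7% and 19.9% with DcpS shRNA, without overlap. Slit3 was 8.29% and 7.29% in the controls, against 7.54% and 5.82% with DcpS shRNA, where DcpS shRNA 2 stood apart. DcpS shRNA 2 gave the lowest sum of every role.

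Beyond these 10 genes, 49 other genes of the pathway were listed by role, and all had enough reads to be tested. Of these, 7 were lower, 3 were higher and 39 did not pass, with a median log2 fold change of 0.02. The share called, in either direction, over all genes tested was 5.79%. The list was drawn up with earlier results of these data known, so these counts are a description. Of the 10 called genes, 4 kept their call in each of the 12 alternative analyses: Ext1, Flrt2, Hs6st1 and Ndfip2. The part of the lower sums of fibroblast, matrix, mural, endothelial, neuron, GABAergic interneuron, Cajal-Retzius and microglia markers in these calls was not tested.

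Other ligands and co-receptors made up 16 of these genes, with 4 lower and 1 higher. Flrt2, an adhesion and guidance protein of a family whose member FLRT3 acts with Robo1, was 2969 and 2667 in the controls, against 2081 and 2273 with DcpS shRNA, and both DcpS shRNA values were below both controls (log2 fold change −0.37, SE 0.06). Flrt3, which binds Robo1 and makes axons responsive to netrin-1, was 1422 and 1326 against 1192 and 1139.8 (−0.24, SE 0.06). Flrt1 had a log2 fold change of −0.21 and did not pass (limma, Benjamini-Hochberg adjusted p 0.176). Nell2, a secreted ligand of Robo3, fell from 6347 ± 27.8 to 5570 ± 243 (SD, n = 2 per group, log2 fold change −0.19), although its receptor Robo3 had few reads. The syndecan Sdc2, a heparan sulfate proteoglycan, fell from 483 ± 25.3 to 387 ± 2.59 (SD, n = 2 per group, −0.32).

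Eva1c, the relative of a worm Slit co-receptor, was the 1 higher gene of that group and the one with the largest fold. It was low in every library, at 20.9 and 28.7 in the controls, against 49.1 and 59.2 with DcpS shRNA. The log2 fold change was 1.11 (SE 0.25, 95% interval 0.57 to 1.64, limma, Benjamini-Hochberg adjusted p 0.0145). DESeq2 did not call it (adjusted p 0.171). The netrin receptor Dcc, which Robo1 silences when Slit is bound, had a log2 fold change of −0.01, and N-cadherin, Cdh2, one of 0.05. Neither was called.

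Heparan sulfate chains hold Slit and Robo together, and 2 of the 5 genes of their synthesis listed were called, in opposite directions. Ext1, a subunit of the chain polymerase, was 1551 and 1368 in the controls, against 1007 and 1074 with DcpS shRNA, a log2 fold change of −0.49 (SE 0.07, limma, Benjamini-Hochberg adjusted p 0.000325). Hs6st1, which adds sulfate at the 6-O position, was 1101 and 1068 against 1507 and 1506, a log2 fold change of 0.47 (SE 0.06, adjusted p 8.77e-05). In neither gene did the groups overlap. Ext2, the partner subunit of Ext1, had a log2 fold change of 0.12, Hs2st1 one of 0.18 and Ndst1 one of 0.02, and none of these passed.

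Of 7 genes of receptor sorting and cleavage, 1 was lower and 1 higher. Ndfip2, an adaptor of Nedd4-family ubiquitin ligases in a family that lowers Robo1 at the surface of commissural axons, was 1085 and 1191 in the controls, against 1399 and 1505 with DcpS shRNA (log2 fold change 0.35, SE 0.06, limma, Benjamini-Hochberg adjusted p 0.00317). Its relative Ndfip1 had a log2 fold change of −0.04 and the ligase Nedd4 one of −0.03, and neither was called. The sheddase Adam10, whose fly counterpart cleaves Robo, went from 2595 ± 8.83 to 2279 ± 23.3 (SD, n = 2 per group, log2 fold change −0.19).

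Among 21 adaptors, kinases and actin effectors, only the microtubule plus-end protein Clasp2, which acts with Abl kinase below Robo, was called. It was 8157 and 8181 in the controls, against 7266 and 6935 with DcpS shRNA (log2 fold change −0.20, SE 0.05, limma, Benjamini-Hochberg adjusted p 0.0248). The adaptors Nck1 (0.03) and Nck2 (0.05), the kinases Pak1 (−0.14), Pak2 (0.03), Abl1 (0.05) and Abl2 (0.04) and the actin regulator Enah (0.07) did not pass. The GTPase genes Rac1 (0.08), Cdc42 (0.11) and Rhoa (0.11) did not pass either.

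Calls that ended when a control was left out were those of Clasp2, Nell2, Adam10 and Sdc2 without control 1 or control 2, and of Flrt3 and Eva1c without control 1. Adjusted p-values (limma, Benjamini-Hochberg) were then 0.226 and 0.257 for Clasp2, 0.262 and 0.312 for Nell2, 0.238 and 0.284 for Adam10, 0.0554 and 0.283 for Sdc2, 0.293 for Flrt3 and 0.0812 for Eva1c. Leaving out DcpS shRNA 2 also ended the calls of Sdc2 (0.0586), Flrt3 (0.0756) and Eva1c (0.0866), and leaving out DcpS shRNA 1 that of Sdc2 (0.0610). DESeq2 (Benjamini-Hochberg adjusted) did not call Sdc2 (0.260), Flrt3 (0.177), Nell2 (0.0802) or Adam10 (0.183).

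**Figure D4:**
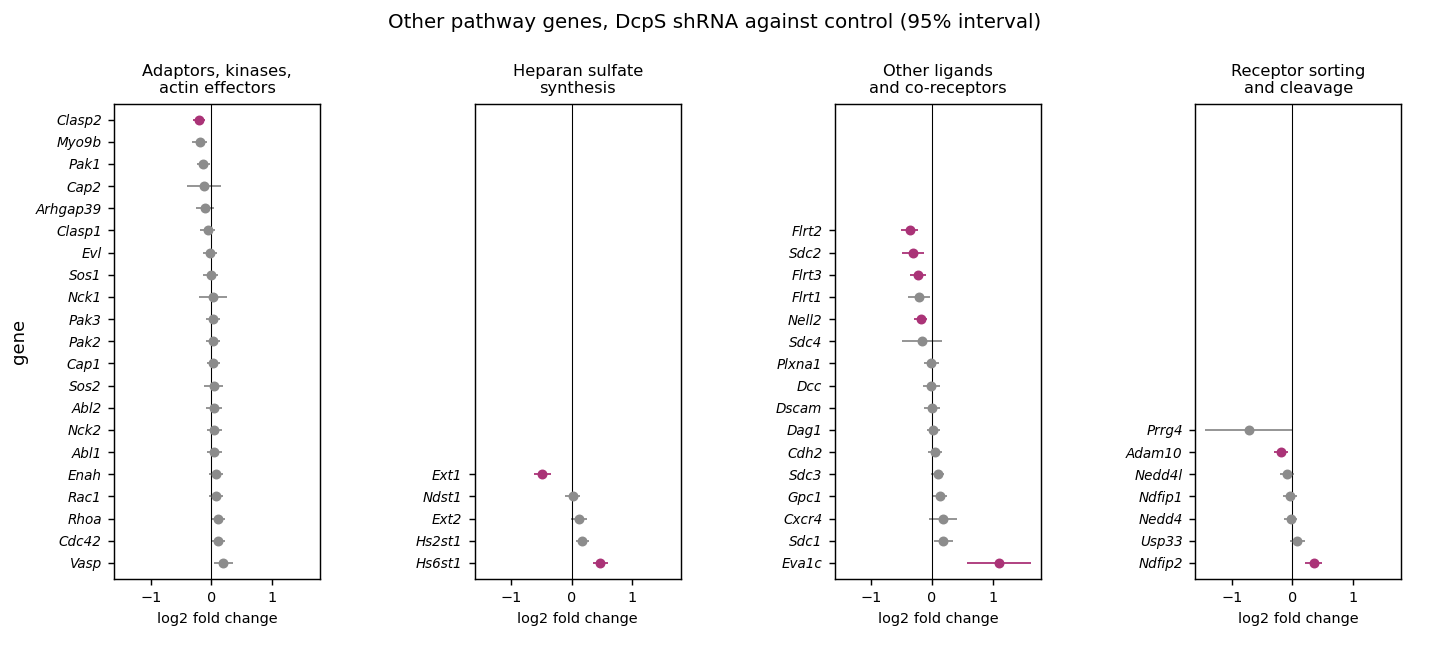
Log2 fold change with its 95% interval (limma) of the 49 other pathway genes, in 4 panels by role, ordered within a panel and coloured purple where called. Most adaptors and effectors lie close to 0, and the called genes Ext1 and Hs6st1 stand at opposite ends of the heparan sulfate panel.

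A pair of overlapping 7-base words, ACGTGCA and CACGTGC, each present once in the Dcps transcript, occurred in the annotated 3′ UTR of 32.2% of called lower genes scanned and of 7.35% of all genes scanned. These shares are a description and not a test, because the words were chosen with earlier results of these data known. The median log2 fold change was −0.11 for genes with either word and 0.01 for genes with neither. The 3′ UTRs of the called lower genes were also longer, with a median of 1934 bases against 1228 over all genes scanned. Neither word was in the 3′ UTR of Robo1, Robo2 or any other Robo or Slit gene, nor in that of any of the 10 called pathway genes. Srgap1 held both words, overlapping at 1 place, and Srgap3 held 1 of them. Only the longest annotated 3′ UTR of each gene was searched. The sequence of the hairpin is not given in the labels. Any part of the hairpin itself, apart from the loss of DcpS, in these values was not tested.

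The genes most like Robo2 over the 4 libraries, by Euclidean distance of centred log2 values among 12273 genes with a mean of at least 100, were Sppl3, Snx4, Gdpgp1, Ankrd50 and Katnal1. Their distances ran from 0.0214 for Sppl3 to 0.0340 for Katnal1, and their log2 fold changes from −0.34 to −0.37, beside −0.35 for Robo2. Gdpgp1, with 148 and 148 in the controls, against 118 and 113 with DcpS shRNA, was not called (limma, Benjamini-Hochberg adjusted p 0.161), while the other 4 were. Robo1 was the 150th nearest at a distance of 0.102. With 4 libraries such likeness reflects mainly the size of the difference between the groups.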

How the data were processed

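RNA was extracted with Trizol and libraries were made by standard Illumina protocols, per the labels. HISAT2 2.2.0, SAMtools 1.3.1, Picard, featureCounts, DESeq2 and GRCm38 are named in the submitters' processing notes. The annotation, the strand setting and the treatment of multi-mapping reads are steps not given in the sources used here. Values were deposited as a signal by gene symbol, and all (100%, tolerance 0.001) were whole multiples of the column's smallest positive value, so whole reads were recovered. The reciprocals of those smallest values equalled median-of-ratios size factors, which assume that most genes do not change.

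The test was limma 3.58.1 on log2(normalised read count + 1), two-sided, using eBayes with its trend and robust options and a design of group alone, on 18110 genes passing edgeR 4.0.16 filterByExpr (minimum count 10) on recovered reads, Benjamini-Hochberg adjusted p under 0.05. The fit leaves 2 residual degrees of freedom for each gene, before eBayes draws on the spread of the other genes. Count tests on the recovered reads were edgeR's quasi-likelihood test, which called 1045 genes, and DESeq2 1.42.0, which called 448. Other alternatives were pseudocounts of 0.5 and 5, no filter, TMM and library-total scaling, each library left out and a replicate block. The script was tested on simulated data, in which the share of false calls was above the nominal level of the threshold and many of the smallest changes built in were missed. Ratios of role sums on merged exon length were added after seeing the data. Coordinates and transcript lengths are from GENCODE M21. A 3′ UTR is the longest annotated for the gene.

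The members, lists and 7-base words were chosen with earlier results of these data known. Named genes were all members, every called pathway gene, the leading markers of a list, Dcps and the 5 genes nearest to Robo2; uncalled pathway genes named beside them were chosen for their role after values were seen.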

Additional observations from a re-analysis of the deposited data

How the results depend on the processing

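Robo2 was called lower in each of the 12 alternatives run, with log2 fold changes of −0.39 to −0.31 and adjusted p-values up to 0.00858, and Robo1 in 11 of 12 (−0.31 to −0.21). Of 216 values of 18 genes under the alternatives, 193 kept direction and call, 20 lost a call and 2 gained one. A member not called that stayed so is counted among the 193, and only called genes could lose a call. Changes of pseudocount or scaling moved the values little. The log2 fold change of Slit2 ran from −0.086 without DcpS shRNA 1 to 0.046 without DcpS shRNA 2, a change of direction whose cause was not tested. Leaving out 1 library at a time, with the lone sample assumed to vary like the others, gave 1 to 4 members called lower in place of 2, the 4 without DcpS shRNA 1 being Robo1, Robo2, Slit3 and Srgap3. It gave 2 to 8 other pathway genes lower and 2 to 5 higher in place of 7 and 3, and 594 to 1439 genes called in all in place of 1048. DESeq2 called 448 genes, with 3 of the other pathway genes lower. With the replicate number as a block, 1626 genes were called; the labels do not say that a number marks a shared preparation, the deviations of same-numbered libraries correlated at 0.0429 across genes, and the block changed no call among the members and the 10 called pathway genes. Robo3 and Robo4 were limited by depth.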
